A study of Drosophila melanogaster with 3 samples.

Results

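The subject was 870 peaks at divergent promoters, taken from 4770 peaks of CG11695, a zinc finger protein of Drosophila melanogaster with an N-terminal ZAD domain. A divergent promoter here was a place where the transcription start sites (TSSs) of 2 protein-coding genes on opposite strands lay within 1000 bp of each other and pointed away from each other. A peak belonged to the set when its summit lay within 500 bp of its nearest TSS and that TSS belonged to such a gene. The rule used positions only, and no signal value entered it. The chromatin came from whole embryos collected at 0 to 24 h from flies with a CG11695-eGFP transgene, and an antibody against GFP was used for chromatin immunoprecipitation followed by sequencing (ChIP-seq). There were 3 biological replicates of this 1 group. The promoter driving the transgene is not given in the labels, and cells of every embryonic tissue were mixed. No input or mock library was analysed here, so places that any precipitation recovers were not separated from places that CG11695 occupies. The conservative list of the authors, made from the alignments of all 3 replicates per the accompanying text notes, served as the main list. Each replicate also had a thresholded list of its own, called its own list below, with 3404, 2774 and 2716 peaks. Signal is the authors' value for a peak, on a scale the sources used here do not state, and read totals were not part of the lists, so depth is unknown.

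Fly genomes are compact, and neighbouring genes are often arranged head to head with a short stretch of DNA between their start sites. Such a stretch can hold elements that serve both genes, and many of the genes are broadly expressed housekeeping genes. ZAD zinc finger proteins form a large insect family, and several of its characterised members sit at promoters or at insulators. In flies, promoters of housekeeping genes often carry the DRE, bound by DREF, or motif 1, bound by the ZAD protein M1BP.

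The stretches below are the whole DNA between the 2 TSSs at 4 of the strongest repeated peaks, shown because the summit lay between start sites 50 to 300 bp apart. They follow genome assembly dm6, read 5′ to 3′ on the plus strand from the RefSeq copy of that assembly. The gene on the left is transcribed leftwards and the gene on the right rightwards, and capitals mark the 21 bases centred on the summit.
140up/Polr2B (chr3R:14125549-14125790, plus strand): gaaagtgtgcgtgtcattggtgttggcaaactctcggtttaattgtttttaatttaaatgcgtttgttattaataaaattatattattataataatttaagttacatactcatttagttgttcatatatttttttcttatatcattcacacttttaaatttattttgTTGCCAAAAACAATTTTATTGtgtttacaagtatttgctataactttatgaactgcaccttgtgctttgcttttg
CG7601/CIA30 (chr3R:29736746-29736964, plus strand): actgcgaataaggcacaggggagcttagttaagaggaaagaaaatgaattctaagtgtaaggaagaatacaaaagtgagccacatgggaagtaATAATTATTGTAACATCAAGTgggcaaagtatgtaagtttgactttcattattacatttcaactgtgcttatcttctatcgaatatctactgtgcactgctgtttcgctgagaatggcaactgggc
Art3/mRpS10 (chr3R:15229409-15229664, plus strand): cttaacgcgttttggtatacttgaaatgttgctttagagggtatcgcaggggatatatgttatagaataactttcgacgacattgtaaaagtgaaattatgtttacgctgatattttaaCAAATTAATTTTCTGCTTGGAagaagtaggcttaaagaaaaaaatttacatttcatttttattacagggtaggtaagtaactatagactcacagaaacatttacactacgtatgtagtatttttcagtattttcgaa
Tcs5/CHMP2B (chr3L:5139396-5139618, plus strand): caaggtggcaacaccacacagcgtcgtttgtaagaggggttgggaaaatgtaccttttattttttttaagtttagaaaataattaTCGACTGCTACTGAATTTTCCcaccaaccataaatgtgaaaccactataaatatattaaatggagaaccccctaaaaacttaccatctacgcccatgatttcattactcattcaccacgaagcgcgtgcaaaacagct
The annotation used here places no exon in any of the 4 stretches, so the capitals lie upstream of both genes. GC content was 24.8% at 140up/Polr2B, 37.9% at CG7601/CIA30, 30.1% at Art3/mRpS10 and 38.1% at Tcs5/CHMP2B. The AT-rich word AAATAT, or its reverse complement ATATTT, occurred 1 time in each of 3 stretches and 0 times at CG7601/CIA30.

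A further pair is shown for the motifs of housekeeping promoters, with capitals on the motif. Atat/Shc was the strongest peak with a DRE (TATCGATA) in a stretch of this size, and CG13690/RpLP1 the strongest with the core of motif 1 (GGTCACAC).
Atat/Shc (chr3L:9426759-9427009, plus strand): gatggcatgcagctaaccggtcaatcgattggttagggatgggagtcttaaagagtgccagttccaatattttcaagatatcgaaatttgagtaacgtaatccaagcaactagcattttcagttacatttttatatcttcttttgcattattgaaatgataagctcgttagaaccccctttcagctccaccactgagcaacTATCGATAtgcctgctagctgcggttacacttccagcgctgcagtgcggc
CG13690/RpLP1 (chr2L:419653-419951, plus strand): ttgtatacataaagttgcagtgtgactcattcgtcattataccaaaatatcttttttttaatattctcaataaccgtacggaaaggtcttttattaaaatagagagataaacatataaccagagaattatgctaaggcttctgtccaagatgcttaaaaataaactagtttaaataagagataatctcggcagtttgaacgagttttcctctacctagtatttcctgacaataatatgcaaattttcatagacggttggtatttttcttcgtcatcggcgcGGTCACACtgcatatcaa
The DRE of Atat/Shc was centred 86.5 bp from the summit, near the start of Shc, which encodes a signalling adaptor. Atat encodes an alpha-tubulin acetyltransferase, and the peak had a signal of 533. The motif 1 core of CG13690/RpLP1 was centred 25.5 bp from the summit. RpLP1 encodes a protein of the ribosomal stalk, and the signal of that peak was 105.

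The strongest member lay between Ugalt, which encodes a nucleotide sugar transporter, and eIF2Bbeta, which encodes a subunit of the exchange factor for the initiation factor eIF2 (X, 2703693 to 2704061). Its signal was 2266 in the main list and 993, 699 and 593 in replicates 1, 2 and 3. It ranked 1 in each own list. The summit stood 45 bp from that of Ugalt and 674 bp from that of eIF2Bbeta, so it lay beside 1 gene and not in the middle.

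PNPase, the gene of polynucleotide phosphorylase, which degrades RNA in mitochondria, and Gprk2, a receptor kinase gene, shared a peak with signals of 622, 487 and 449 in the 3 replicates (3R, 31404498 to 31404823). Their start sites are 677 bp apart. It ranked 4, 8 and 3, and the summit was again close to 1 of the genes, 93 bp from the TSS of PNPase and 584 bp from that of Gprk2.

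Chro, which encodes Chromator, a chromatin protein of polytene interbands, starts 321 bp from Ssl1, a TFIIH subunit gene (3L, 22878729 to 22879065). The peak had signals of 545, 422 and 399, with ranks of 11, 16 and 9. Its summit was 147 bp from 1 TSS of the pair and 174 bp from the other, close to the midpoint. Another start site of Chro lay 69 bp from the summit.

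Polr2B encodes the second-largest subunit of RNA polymerase II and starts 243 bp from 140up. The signals of their peak were 479, 501 and 377, and its ranks 20, 7 and 13, so replicate 2 gave both the highest signal and the best rank (3R, 14125497 to 14125927). CG7601 and CIA30, a gene for an assembly factor of respiratory complex I, start 220 bp apart. Their peak had signals of 597, 405 and 348 and ranks of 5, 19 and 18 (3R, 29736690 to 29737002), and its summit was 104 and 116 bp from the start sites.

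Mitochondrial ribosomal protein genes appeared 3 times among the 15 strongest repeated pairs. The peak of mRpL41/CG8079 had signals of 582, 466 and 428 (2R, 15217599 to 15217904), that of mRpS23/CenG1A 581, 409.7 and 393 (2L, 13835313 to 13835627), and that of Art3/mRpS10 493, 437 and 363 (3R, 15229375 to 15229686). Each ranked among the best 20 in every own list. CenG1A encodes a GTPase-activating protein of Arf GTPases, and Art3 an arginine methyltransferase. The summit was 395 bp from the TSS of mRpS23 but 97 bp from that of CenG1A, whereas at Art3/mRpS10 it was 130 and 127 bp from the start sites.

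Among the other strong pairs, Tcs5, a kinase gene of the KEOPS complex, and CHMP2B, an ESCRT-III gene, had signals of 489.9, 437 and 308 (3L, 5139341 to 5139666). CG13390/CG17294 had 455, 343 and 329, and CG5611/Mtl had 408, 353 and 272 (3R, 27635993 to 27636304). At Fbw5/CG9147 the values were 451, 316 and 279, and the summit lay 8 bp inside CG9147 rather than between the start sites. Replicate 1 had the highest signal in 14 of the 15 and replicate 2 in the remaining 1. Each list has its own unstated scale, so the ranks, not the signals, compare replicates.

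**Figure D1:**
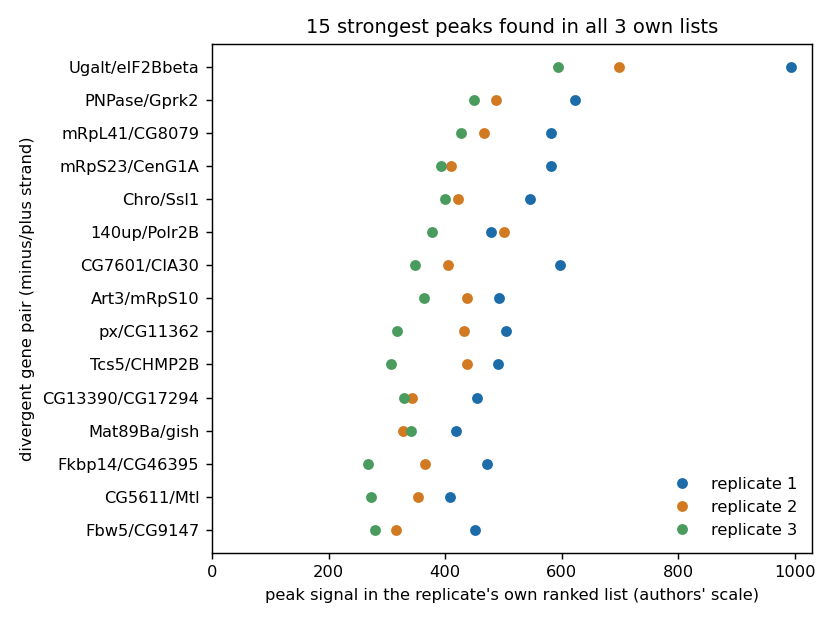
Peak signal on the authors' scale (horizontal) of the 15 strongest peaks that overlapped a peak in all 3 own lists (vertical, named by the minus-strand and plus-strand gene), 1 point per replicate. Ugalt/eIF2Bbeta is highest in every replicate, from 593 to 993, and the scale may differ between replicates.

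The remaining 3 of these 15 were divergent by the rule but not by the start site at the peak. The rule asks for a divergent TSS anywhere in the nearest gene. The peak at px, which acts in wing vein patterning, lay 206 bp from a start site of px but 47760 bp from the one that faces CG11362. For gish, a casein kinase gene, the distance to the divergent pair with Mat89Ba was 7735 bp. For Fkbp14, which encodes a peptidyl-prolyl isomerase, it was 602 bp. Their signals were 505, 432 and 317 at px, 419, 327 and 341 at gish and 471, 366 and 268 at Fkbp14, similar to those of the neighbouring ranks.

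By position the 870 members fell into 3 places. Where the nearest gene had several divergent pairs of start sites, the one enclosing the summit or closest to it was used, then the narrowest. This choice can raise the share of summits between the start sites and lower their distance from the midpoint. Summits between the 2 start sites made up 542 (62.3%). A further 162 lay inside a gene within 500 bp of the pair. The remaining 166 lay over 500 bp from the pair, at a median of 2624 bp and at most 116669 bp, and 33 of them over 10000 bp. Among the 704 members within 500 bp of their pair, 77.0% had the summit between the start sites. The own lists gave shares between the start sites of 70.7%, 68.5% and 66.7% of their divergent peaks, with a mean of 68.6% ± 2.01 (SD, n = 3). With 1 TSS a gene, the share in the main list was 62.7% of 606 members.

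Summits between the start sites gathered near the middle of the pair of start sites chosen for them as above. Their median distance from the midpoint was 49.0 bp, and 277 of 542 lay within 50 bp and 378 within 100 bp of it. With each stretch divided into 5 equal pieces from the minus-strand to the plus-strand gene, the pieces held 58, 107, 197, 120 and 60 summits. There was little lean to either strand: 280 were nearer the plus-strand gene, 258 nearer the minus-strand gene, and 4 equally near. The nearer TSS was a median of 114 bp away and the farther 218 bp. Both genes started within 250 bp of the summit at 311 peaks.

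**Figure D2:**
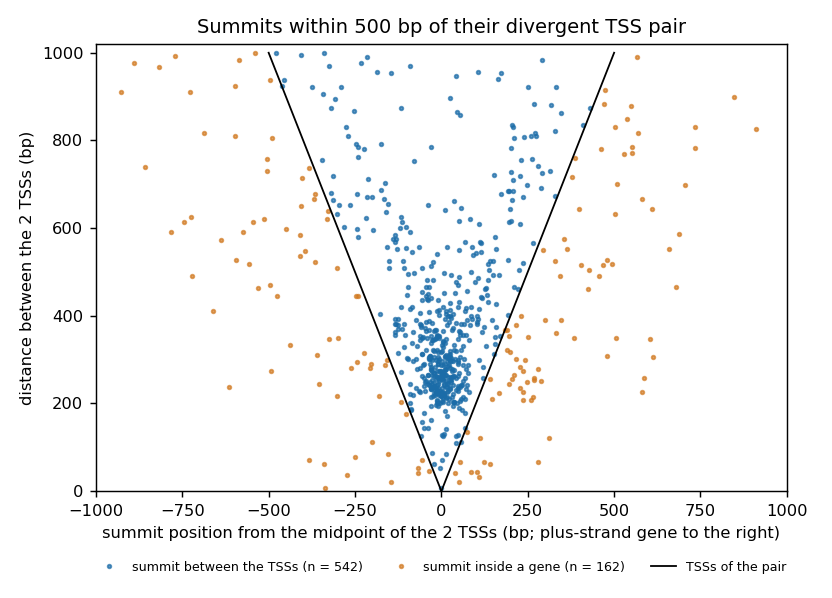
Summit position relative to the midpoint of the 2 start sites (horizontal, bp, plus-strand gene to the right) against the distance between them (vertical, bp), 1 point per peak for the 704 within 500 bp of their pair. Blue points (542) lie between the start sites, drawn as black lines, and orange points (162) inside a gene. For short stretches the points gather at the midpoint, and for long ones many lie nearer 1 of the 2 start sites.

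In long stretches the summit could stand beside 1 gene, as at Ugalt and PNPase. Of the 675 pairs 500 to 1000 bp apart, 101 had a main summit between the start sites and 36 a main summit within 150 bp of the midpoint. That window covers a large part of such a stretch, so these counts do not measure how often a summit stood beside 1 gene.

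The distance between the start sites also went with how often a peak was there. The annotation holds 2667 divergent gene pairs, and the shortest distance of each had a median of 301 bp. In the 727 pairs with a member the median was 350 bp, for the start sites assigned to the strongest member. That distance cannot be less than the shortest one, so the 2 medians are unlike measures. A summit lay between the start sites in 2.52% ± 0.196 of the 780 pairs less than 200 bp apart. The share was 23.0% ± 3.62 of the 544 pairs 200 to 299 bp apart, 17.4% ± 2.07 of the 668 pairs 300 to 499 bp apart and 11.0% ± 1.16 of the 675 pairs 500 to 1000 bp apart (SD over the own lists, n = 3).

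Long stretches offer more room for a summit, so the share with a summit within 150 bp of the midpoint was also taken. It was 8.72% ± 0.968, 23.4% ± 3.72, 16.9% ± 2.07 and 4.25% ± 0.746 in the same order. By both measures the class of 200 to 299 bp was highest in each of the 3 replicates and that of 300 to 499 bp came next, while the closest and the farthest pairs changed places. For the closest pairs the window around the midpoint reaches into the genes, which the first measure does not.

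**Figure D3:**
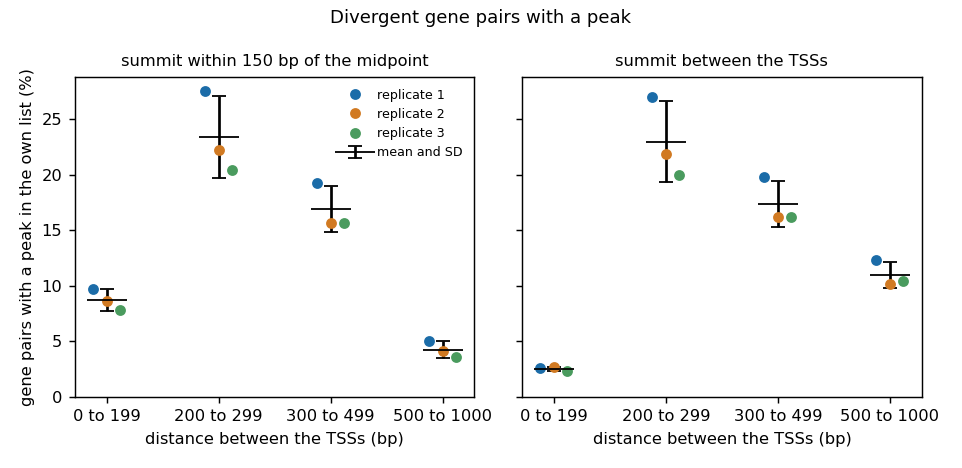
Share of divergent gene pairs with a peak in the own list (vertical, percent) by distance between their start sites (horizontal, bp). Coloured points are replicates and black marks the mean and SD (n = 3); left, summit within 150 bp of the midpoint; right, summit between the start sites. Pairs 200 to 299 bp apart have the highest share in both panels, with means of 23.4% and 23.0%.

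Peaks between the start sites were stronger than those inside a gene. Their median signal was 152 in the main list, against 78.0 inside a gene and 137 far from the pair. In the own lists the median rank, from 0% for the strongest to 100%, was 40.2% ± 1.23 between the start sites, 72.3% ± 8.27 inside a gene and 37.0% ± 2.18 far from the pair (SD, n = 3). Between minus inside a gene was −32.0 ± 8.23 percentage points, with the same sign in 3 of 3 replicates. The two-sided exact sign-flip permutation test over the replicates gave p = 0.25, the smallest that 3 replicates allow, so no difference can pass a threshold of 0.05 in this test. Of the 162 members inside a gene, 32 lay within 250 bp of a stronger record, 27 of them on the side of the plus-strand gene, against 21 of the 542 between the start sites. Without such records the median signals were 88.6 for 130 members inside a gene and 158 for 521 between the start sites.

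GC content within 100 bp of the summit was lowest between the start sites. In the own lists it was 32.0% ± 0.363 between the start sites, 41.8% ± 0.918 inside a gene and 35.5% ± 1.00 far from the pair. The difference of the first from the second was −9.73 ± 0.732 percentage points, in 3 of 3 replicates (exact permutation test, p = 0.25, n = 3).

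The members were found again in the replicates slightly more often than all peaks. Of the 870, 371 (42.6%) were found in every own list, set beside 36.8% of all 4770 main peaks and 37.7% of the 1102 peaks at promoters of protein-coding genes with no divergent partner, called one-directional below. In replicate 1, 67.1% of members were found against a background of 63.9%. In replicates 2 and 3 the shares were 56.8% and 57.5%, against 52.2% in both. The main and own lists came from the same chromatin, so this overlap is not independent evidence for a peak. The share in all 3 lists was 49.3% of members between the start sites, 21.6% inside a gene and 41.6% far from the pair.

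Repetition followed signal. In 5 equal classes of 174 members from strong to weak, 173, 138, 42, 0 and 18 were found in all 3 own lists. The summit lay between the start sites in 73.0%, 73.6%, 71.8%, 58.0% and 35.1% of the same classes. All 18 of the weakest class lay beside a stronger record, and so did 62 of its 174 members.

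The weakest members show this directly. The record at Ptpmeg, a tyrosine phosphatase gene, ranked 4736 in the main list, with a signal of 4.28, but overlapped own-list peaks ranked 751, 818 and 552 (3L, 350858 to 351237). At IntS6, an Integrator subunit gene, the main rank was 4764, with a signal of 3.01, and the own ranks 2150, 1322 and 1052 (X, 5746074 to 5746453). The record between CG9663 and CG3277 had the lowest signal, 2.74, and was in 0 own lists (2L, 3303334 to 3303713). Of the 22 members with a signal under 10, 21 lay within 250 bp of a stronger record, so their signals do not describe the place as a whole. With such records merged into the stronger one, 802 members remained.

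Summits of members lay less far upstream of the nearest TSS than those of one-directional promoter peaks. The median offset was 96.0 bp upstream at members and 150 bp upstream at one-directional promoter peaks. Summits downstream of the TSS counted as negative offsets, so these medians are not absolute distances from a TSS. The own lists gave 105, 102 and 105 bp for divergent peaks against 161, 184 and 158 bp, so the 2 sets of medians did not overlap. With a second gene nearby, a TSS is found sooner on either side, and the part of this in the difference was not tested.

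In strength the 2 kinds of promoter peak differed in the main list, and in the own lists by less than the spread between replicates. Median signal in the main list was 137 at members, 117 at one-directional promoter peaks and 120.1 over all peaks. The median rank there was 42.4% at members and 51.9% at one-directional promoter peaks, a difference of −9.50 percentage points in a single list. In the own lists the median rank of divergent minus one-directional peaks was −4.66, 3.08 and −4.79 percentage points, a mean of −2.12 ± 4.51 (exact permutation test, p = 0.5, n = 3). Replicate 2 went the other way, and with a global IDR of 0.001 in place of 0.01 the mean was 4.87, the opposite direction.

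Genes at divergent promoters had a peak more often than other genes. Of the 13945 protein-coding genes of the annotation, 5052 (36.2%) had a divergent TSS, and 1269 of these (25.1%) had a TSS within 500 bp of a member summit. In 600 (11.9%) the strongest such peak was found in all 3 own lists. With any summit within 500 bp of a TSS counted, the own lists held 20.2%, 17.1% and 16.7% of genes at divergent promoters. The share among the 8893 other genes was 8.15%, 6.30% and 7.26%. Among protein-coding promoter peaks, 45.6% ± 2.00 (SD over the own lists, n = 3) were at divergent promoters. A single peak at a divergent promoter can count for both genes, as 530 of the 870 members lay within 500 bp of both, and the part of this in the gene shares was not tested.

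Of the gene lists, cytoplasmic ribosomal protein genes had the largest number with a member. Of the 55 at divergent promoters, 38 (69.1%) had a member peak, set beside the 25.1% over all genes at divergent promoters. The strongest was at RpL34b (3R, 9401296 to 9401516), with signals of 158, 121 and 106. RpL32, a widely used reference gene, had 150, 116 and 94.3 (3R, 30046172 to 30046443), and RpS20 122, 96.4 and 98.7 (3R, 20821910 to 20822112). These are moderate signals, far below those of the strongest members. In 15 of the 38 genes the strongest peak was found in all 3 own lists, beside 600 of all 1269 genes with a member. The own lists held 44.2% ± 2.10 of the 55, and 33.3% ± 4.13 of the 37 ribosomal protein genes without a divergent TSS, so peaks at these genes were not limited to divergent promoters.

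Most groups of mitochondrial and other core genes lay near the 25.1% of all genes at divergent promoters, and proteasome genes lay below it. A member peak was at 16 of 58 mitochondrial ribosomal protein genes (27.6%), 9 of 44 oxidative phosphorylation genes (20.5%) and 6 of 23 aminoacyl-tRNA synthetase genes (26.1%). It was at 10 of 36 general transcription factor and Mediator genes (27.8%), 5 of 18 nuclear pore genes (27.8%) and 5 of 19 RNA polymerase subunit genes (26.3%). The count was 3 of 12 for DNA replication and S phase genes (25.0%), 5 of 21 for translation initiation factor genes (23.8%) and 4 of 26 for proteasome genes (15.4%). Outside divergent promoters, 11.1% of all genes had a main peak near a TSS. There a main peak was at 0 of 42 oxidative phosphorylation genes, 0 of 22 proteasome genes, 0 of 10 aminoacyl-tRNA synthetase genes and 1 of 15 mitochondrial ribosomal protein genes. It was at 0 of 3 nuclear pore genes, 0 of 6 DNA replication and S phase genes and 1 of 11 RNA polymerase subunit genes. The shares were higher for translation initiation factor genes, 4 of 23 (17.4%), and for general transcription factor and Mediator genes, 2 of 13 (15.4%).

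The own lists held 18.0% ± 1.90 of all genes at divergent promoters and 7.24% ± 0.928 of the other genes (SD, n = 3). Oxidative phosphorylation, proteasome and aminoacyl-tRNA synthetase genes stood at 13.6% ± 2.27, 7.69% ± 0 and 23.2% ± 6.64 with a divergent TSS, and each at 0% without one.

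The strongest peaks of 3 of these lists were as follows. ND-ASHI, a complex I subunit gene, is divergent with Fum1, which encodes fumarase (X, 6679262 to 6679486), and their peak had signals of 179, 106 and 106. GluProRS and AP-1sigma, a clathrin adaptor gene, had 128, 90.3 and 88.6 (3R, 23958413 to 23958607). Taf5, a TFIID subunit gene, and Pex6, a peroxisome biogenesis gene, had 171, 132 and 129.9 (2R, 10879729 to 10879959). All 3 were found in every own list.

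SerRS and CG17260 start 8 bp apart, the shortest distance among the members, and the summit lay between them with signals of 80.5, 75.0 and 43.4 (2L, 3037217 to 3037596). Rpn3, which encodes a regulatory proteasome subunit, had 82.4, 85.5 and 76.5 (2L, 19051703 to 19051865). RnrS, the gene for the small subunit of ribonucleotide reductase, had 108, 83.7 and 43.9 (2R, 11985396 to 11985775). These peaks, too, were in all 3 own lists, although replicate 3 gave SerRS and RnrS about the value of a median member there, 41.9.

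In 6 gene pairs with a member, both genes were in the lists. RpS27/Nup37 joined a ribosomal and a nuclear pore gene, with signals of 100.3, 117 and 45.8. RpL28/eIF1 had 39.0, 62.4 and 30.5, and mRpL39/Prosbeta2 31.3, 43.7 and 41.6. RpS27/Nup37 was found in all 3 own lists and the other 2 pairs in 2. Ibf2/Ibf1 encode a pair of insulator-binding factors, and their peak, with 49.6, 54.8 and 44.9, lay 298 bp inside Ibf2. The remaining pairs were RpL9/Nup154 and the ZAD genes trem and idc, each found in 1 own list.

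Genes for insulator and architectural proteins were few, and the strongest of their peaks were at Chro and Cp190. By the strongest member of each gene, their median signal was 255, against 155 over all genes with a member. Of 10 at divergent promoters, 5 (50%) had a member, beside 25.1% of all genes at divergent promoters. In 4 of the 10 it was found in all 3 own lists, beside 11.9%. Besides Chro, the peak at Cp190, which encodes a protein shared by several insulator complexes, had signals of 196, 200.1 and 181 (3R, 15275256 to 15275530). Trl, the gene of GAGA factor, had 98.5, 86.9 and 63.0 (3L, 14757122 to 14757277), at a start site 3833 bp from the divergent one. The own lists held 50% of the 10 in each replicate, beside 20.2%, 17.1% and 16.7%.

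The list of ZAD genes, the family of CG11695, held 22 genes, was chosen with earlier results known and may not cover the family. Of its 13 genes at divergent promoters, 9 (69.2%) had a member, beside 25.1% of all genes at divergent promoters. They had 8 separate peaks because trem and idc share 1. These were weak: by the strongest member of each gene, the median signal was 107, below 155 over all genes with a member. In 1 of the 9 genes the peak was found in all 3 own lists, beside 600 of all 1269 genes with a member. D19B was that gene, with 119, 90.8 and 73.1 (3L, 6185061 to 6185266). CG3032 had 83.0, 58.1 and 59.1 (X, 7013563 to 7013942), and M1BP 40.9, 72.1 and 40.2 (3R, 8731580 to 8731959). The own lists held 30.8% ± 7.69 of the 13, beside 18.0% ± 1.90 of all genes at divergent promoters (SD, n = 3), so the share in the main list was more than that of any replicate. Of the 9 listed ZAD genes without a divergent TSS, the main list held 0 and the own lists 11.1%, 11.1% and 0%. The mean over all genes without one was 7.24%.

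CG11695 itself starts 263 bp from e(y)2, which encodes a small subunit of the SAGA coactivator and of the TREX-2 export complex. A peak lay between them, 75 bp from the TSS of e(y)2 and 188 bp from that of CG11695 (X, 11576505 to 11576884). Its signals were 64.8, 30.2 and 39.7, and it was found in the own list of replicate 1 only. At 133 in the main list it was an ordinary member. The transgene brings its own copy of CG11695, and the part of that copy in this peak was not tested.

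Of 27 Hox and segmentation genes, 0 had a divergent TSS, so none could have a member. In the main list 5 (18.5%) had a peak near a TSS, beside 11.1% of all genes without a divergent TSS. The own lists held 3.70% in each replicate, beside 8.15%, 6.30% and 7.26%. A member was at 0 of 5 cuticular protein genes and 0 of 26 odorant, gustatory and ionotropic receptor genes with a divergent TSS. The share over all genes at divergent promoters was 25.1%, and 5 genes are too few to set against it.

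**Figure D4:**
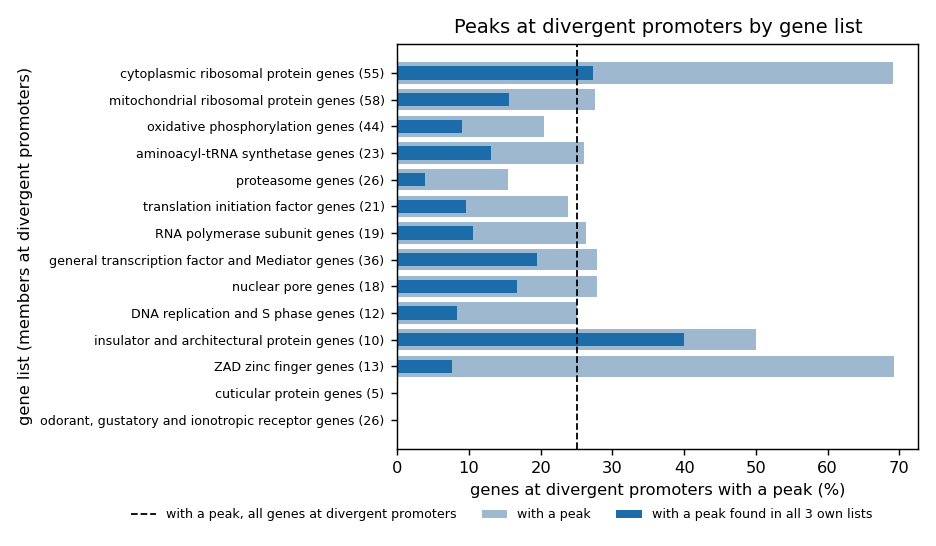
Share of the genes at divergent promoters with a peak (horizontal, percent) for each gene list (vertical, number of genes at divergent promoters in brackets). Pale bars count any member peak and dark bars those found in all 3 own lists, and the dashed line marks 25.1%, the share over all genes at divergent promoters. Cytoplasmic ribosomal protein genes (69.1%) and the 13 listed ZAD zinc finger genes (69.2%) have the longest pale bars.

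Short motifs were counted on both strands within 100 bp of the summit. The DRE (TATCGATA, which contains CGATA) was in 5.54% ± 0.803 of divergent peaks and 1.87% ± 0.295 of one-directional promoter peaks of the own lists (SD, n = 3). The difference was 4.05, 4.38 and 2.59 percentage points, a mean of 3.67 ± 0.955 (exact permutation test, p = 0.25, n = 3). In contrast, the GAGA element (GAGAG) was in 16.6% ± 2.60 of divergent and 28.6% ± 3.95 of one-directional peaks, and the ranges of the replicates did not overlap. The core of motif 1 (GGTCACAC) was rare in both, at 2.32% ± 0.0985 and 1.35% ± 0.190. The E-box CAGCTG was in 10.4% ± 0.505 and 8.44% ± 1.45, with overlapping ranges.

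The DRE and GAGA shares also differed between all promoters of the 2 kinds, and at divergent promoters they were alike with and without a member. In windows of the same length, 201 bp, the DRE was at the midpoint of 8.55% of all 2667 divergent pairs and upstream of 2.45% of all 12008 one-directional start sites. It was in 7.98% of the 727 divergent pairs with a member and in 8.76% of the 1940 without one. The GAGA element was in 14.6% and 14.5% of the same divergent pairs, and in 27.9% of one-directional start sites. Motif 1 was in 3.71% of pairs with a member and 6.03% of those without. The 727 pairs with a member include some whose member lay far away, as 166 of the 870 members were over 500 bp from their pair. At such pairs the midpoint window was not at the peak, here and for the AT-rich words below.

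AT-rich words differed in another way. AAATAT was counted because it led in an earlier analysis of these data, so a high share at peaks is not independent evidence. It was in 59.1% of divergent pairs with a member, 53.3% of those without and 39.3% of one-directional start sites. At the peaks of the own lists it was in 56.7% ± 1.23 of divergent and 53.9% ± 1.77 of one-directional windows, so the 2 kinds of peak were more alike than the 2 kinds of promoter. The same held for TATAAA, with 42.8% ± 1.29 and 37.5% ± 1.67 at peaks, and 39.7% and 28.6% at all promoters of each kind. Mean GC at all promoters was 34.0% for divergent midpoints and 39.4% for one-directional start sites. At peaks of the own lists it was 33.9% and 35.8%, a difference of −1.80 ± 0.836 percentage points (exact permutation test, p = 0.25, n = 3). The difference had the same sign in 3 of 3 replicates.

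**Figure D5:**
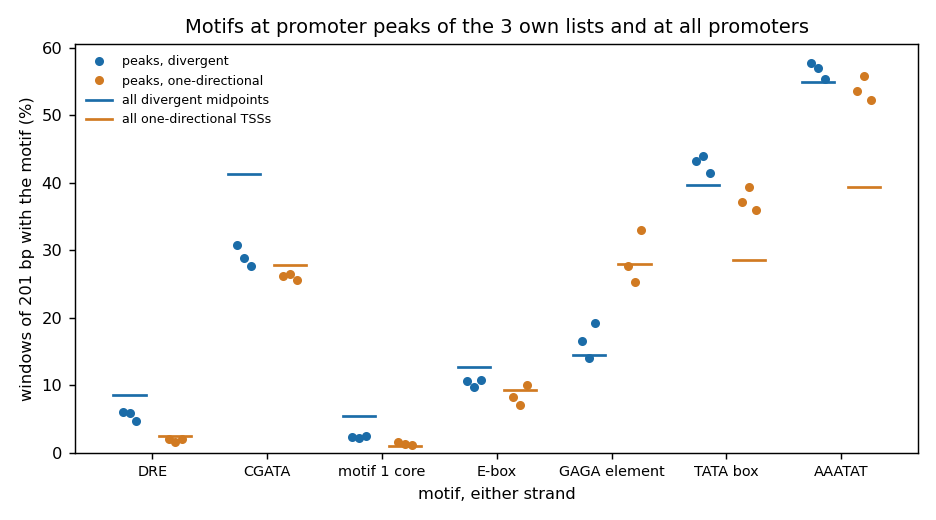
Share of 201 bp windows that hold each motif on either strand (vertical, percent) for 7 motifs (horizontal). Points are the 3 own lists, blue for divergent and orange for one-directional promoter peaks, and lines are all promoters of each kind with or without a peak. The blue points lie above the orange ones for the DRE and below them for the GAGA element, as the lines do.

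DRE sites were found at a range of distances from the summit. The motif occurred within 100 bp of 46 members, of which 42 had the summit between the start sites. Sites were sought within 300 bp of the summit and found at 139 of the 870 members. Of the nearest site of each, 12 lay within 50 bp, 34 at 50 to 100 bp, 70 at 100 to 200 bp and 23 at 200 to 300 bp, with a median of 128 bp. These classes differ in width, and the median depends on the 300 bp searched. The median at the 58 one-directional promoter peaks with a site in that range was 132 bp. The difference in DRE share between the 2 kinds of peak was 0.821 ± 0.598 percentage points within 50 bp of the summit and 8.73 ± 0.723 within 200 bp (SD over the own lists, n = 3). Members with a DRE had a median signal of 133, against 137 over all members. Of the 46, 17 (37.0%) were found in all 3 own lists, beside 42.6% of all members.

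After Atat/Shc, the strongest members with a DRE were at Ufc1/CG8389, with signals of 133, 111 and 104 (2R, 16007658 to 16007888), and at Syt14/CG9795, with 128, 102 and 70.6 (3R, 4319519 to 4319667). Ufc1 encodes the conjugating enzyme of the ubiquitin-like protein UFM1, and Syt14 a synaptotagmin. Mob2/CG7394 had 102, 112 and 81.3, and Mical/CG3909, where Mical encodes an actin-oxidising enzyme, 116, 88.4 and 86.6. All 4 were found in every own list, and at each the summit lay between the start sites, 63 to 134 bp from the nearer one.

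Few peaks lay just inside or just outside the distance limit. The 14 members at 450 to 500 bp from the nearest TSS had a median signal of 132, and the 16 peaks just outside, at 501 to 550 bp, of 152. Members spread over the arms as 169 on 2L, 170 on 2R, 203 on 3L, 205 on 3R, 2 on 4 and 121 on X.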

How the data were processed

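The data were ChIP-seq peak lists from 3 biological replicates of 1 group, on assembly dm6 per the labels. The lists come from a comparison of peak ranks between 2 peak sets by irreproducible discovery rate (IDR). Aligner and peak caller: not given in the sources used here. The peak signal deposited by the authors has no stated scale, so strength was compared within a list. Signals of different lists were set side by side only as a description. The authors' score, which rescales the global IDR, was 830 or more after thresholding. The ranked lists deposited by the authors add −log10 of the global IDR, whose limit in thresholded lists was 0.01. No read totals were given, so depth is unknown and no counting interval can be had. The main list compared the ranks of replicates 1 and 3, inferred from identical records (73.8% and 67.5% of its compared records occurred in their ranked lists).

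Peaks on the 6 arms were kept, 1 record per summit, with coordinates from 1. Of the main records, 368 lay within 250 bp of a stronger one and were kept. TSSs came from Ensembl BDGP6 annotation 54 (release 115), with transposable elements left out, and sequence from RefSeq of the same assembly. All annotated TSSs of a gene counted, and 30 members had tied nearest TSSs. Overlap meant 1 bp or more. Motifs were searched in windows of 201 bp. Differences were tested over replicates with two-sided exact sign flips, and p-values measure only the spread between these 3 samples. Python 3.11.15, numpy 2.4.6, pandas 2.3.3 and scipy 1.17.1 were used, and the rule and motif search were tested on simulated data.

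The rule, gene lists and motifs were chosen with earlier results of these data known, AAATAT among them. Named genes were those of the 15 strongest members found in all own lists, up to 3 genes per list by signal, the 3 members of lowest signal and CG11695. The DRE examples after Atat/Shc, the pairs with both genes in the lists, the comparison of summit places, the gene shares in the own lists and the count of summits anywhere between the TSSs were chosen after values were seen. Alternatives changed the distances, threshold, list, overlap, merging, motif window and TSS set.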

Additional observations from a re-analysis of the deposited data

How the results depend on the processing

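The count of 870 members fell to 522 at a global IDR of 0.001 and moved by less than 1.5 times under 10 other alternatives. The share found in all 3 own lists, 42.6%, became 48.3% at an IDR of 0.001, 36.2% in the pooled list and 29.8% with 50% reciprocal overlap. The share over all peaks, 36.8%, was taken at the main setting only. Whether members exceeded all peaks under the alternatives was therefore not tested. With 1 replicate left out it ranged from 43.9% to 50.3%, where a pair list leaves a replicate out of the rank comparison only. The share with the summit between the start sites, 62.3%, became 60.0% and 67.2% with start sites at most 500 and 2000 bp apart, and 69.5% and 53.1% with summits within 250 and 1000 bp of a TSS. It was 65.0% with close summits merged, 71.1% at an IDR of 0.001 and 64.3% to 64.6% with another pair list. It was 77.0% when the summit had to lie within 500 bp of the divergent pair itself, an alternative chosen after seeing the data.

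The share of protein-coding promoter peaks at divergent promoters, 45.6%, became 36.2% and 54.5% with the 2 other distances between start sites, 52.3% and 42.9% with the 2 other distances to a TSS, 42.0% with 1 TSS a gene and 40.6% near the pair itself. The rank difference of −2.12 reversed to 4.87 at an IDR of 0.001. In the main list it was −9.50. The DRE and GC differences kept their direction under all 14 alternatives each. The DRE difference, 3.67, was 0.821 within 50 bp and 8.73 within 200 bp of the summit, and the GC difference, −1.80, was −3.22 with summits within 250 bp of a TSS and −1.12 at an IDR of 0.001. The cause of these changes was not tested. There was no second group of samples to pair with this one. Contrasts between kinds of peak were paired within each replicate. With 3 replicates the exact sign-flip test cannot pass 0.05, and without read totals no limit from depth can be given.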
